A study of Mus musculus with 6 samples.

Results

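The integrins described here are 10 subunits of progenitors and leukocytes: the alpha subunits Itga2, Itga4, Itga5, Itga6, Itgal, Itgam and Itgav and the beta subunits Itgb1, Itgb2 and Itgb7. They were chosen by gene symbol, with the platelet pair Itga2b and Itgb3 set aside, and each of the 10 was matched by a single probe set, out of 19661 genes tested. The study sorted megakaryocyte-erythroid progenitors, the marrow cells that form red cells and platelets, from Fog1+/+ mice and from Fog1ki/ki mice of the mixed strain B6.129. Each genotype had 3 arrays, called biological replicates in the labels, which give neither the age nor the number of animals behind an array, so that p-values measure only the spread between these samples. The sort kept cells that stained for Kit but not for lineage antigens, Sca1 or CD34, and that had low FcγRII/III. The Fog1ki/ki mice carry a knock-in on both alleles of Zfpm1, the gene for FOG1, a cofactor of the transcription factor GATA1. The labels do not describe the altered protein; from general knowledge of the study, it has lost its contact with the NuRD chromatin complex, and the arrays ask which genes depend on that contact.

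Integrins are receptors made of an alpha and a beta chain that hold cells to matrix or to other cells. Most progenitor integrins share the beta 1 chain of Itgb1. With the alpha 4 chain of Itga4 it binds VCAM1 on marrow stroma, with alpha 5 it binds fibronectin, with alpha 6 laminin and with alpha 2 collagen. The alpha V chain of Itgav pairs with several beta chains and binds vitronectin and latent TGF-beta. The beta 2 chain of Itgb2 is confined to leukocytes and forms LFA-1 with the product of Itgal and Mac-1 with that of Itgam. The beta 7 chain of Itgb7 joins alpha 4 to bind MAdCAM-1, and it is widely used as a surface marker of mast cell progenitors.

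None of the integrin members passed the test between genotypes. At a limma adjusted p under 0.05 over all genes, 0 of 10 were called, against 0.773% of all genes tested, and at an unadjusted p under 0.05 there was 1, Itgav, against 9.57%. Of the 10, 5 lay above and 5 below zero, with a median log2 difference (Fog1ki/ki minus Fog1+/+, the direction used throughout) of -0.03 against 0.02 over all genes. With arrays centred on their medians 3 lay above zero, and with quantile normalization repeated 4 did. The arrays of the genotypes overlapped or met in each of the 10. They did not overlap in 14.8% of all genes, and 10 members are too few to be set apart from that share. The 95% interval of the difference, taken from the same limma model, stayed within a 2-fold change in either direction for 10 of 10 members, as it did for 98.2% of all genes. Over the members the intervals ran from a log2 difference of -0.67 to one of 0.71. Changes inside those intervals are not excluded by these arrays. In sorted populations such as these, fewer cells of a type and less RNA per cell cannot be told apart.

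**Figure D1:**
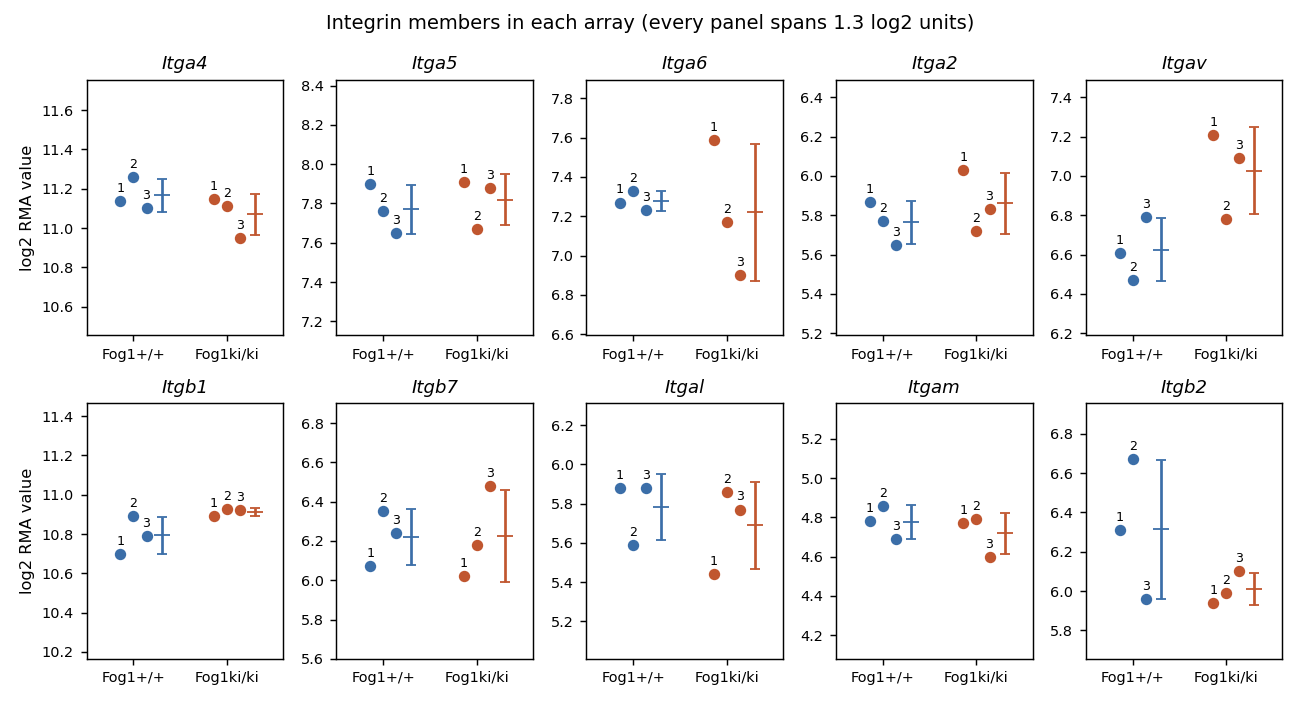
Deposited log2 RMA values (vertical axis) of the 10 members in each array, with replicate numbers beside the points and the mean ± SD of each genotype drawn to their right; blue is Fog1+/+ and orange Fog1ki/ki, n = 3 each. In each panel the genotypes overlap or meet; those of Itgb1 meet at 10.89, and for Itgav the highest Fog1+/+ array (6.79) lies just above the lowest Fog1ki/ki array (6.78).

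The promoter windows of Itgav, the member with the smallest p, and Itgb7, the mast cell progenitor marker, are shown because the knock-in alters a partner of a GATA factor. Promoters were taken from RefSeq on GRCm38.p6, where 7 of the 10 members matched, as the 250 bases before 1 annotated start. For both genes RefSeq also annotates the gene further upstream, so other starts exist. Capitals mark matches, on either strand, to the GATA words AGATAA or AGATAG or TGATAA or TGATAG, or to GAGGAA, a word bound by the myeloid factor PU.1. The windows are chr2:83724147-83724396 on the plus strand for Itgav and chr15:102231936-102232185 on the minus strand for Itgb7.
Itgav: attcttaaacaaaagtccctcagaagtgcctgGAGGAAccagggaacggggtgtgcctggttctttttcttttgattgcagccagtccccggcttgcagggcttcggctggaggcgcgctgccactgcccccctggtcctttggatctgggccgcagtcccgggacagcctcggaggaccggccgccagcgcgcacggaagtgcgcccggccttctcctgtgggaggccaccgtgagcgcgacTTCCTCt
Itgb7: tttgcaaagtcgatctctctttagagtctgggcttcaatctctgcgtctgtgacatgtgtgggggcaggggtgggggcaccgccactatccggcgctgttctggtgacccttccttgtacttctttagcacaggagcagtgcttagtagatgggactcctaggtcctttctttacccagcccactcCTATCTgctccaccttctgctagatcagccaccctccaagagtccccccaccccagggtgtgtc
The Itgb7 window holds 1 GATA word, which begins 64 bases before the start, and no GAGGAA. The Itgav window holds 2 GAGGAA words, 1 on each strand, and no GATA word. A GATA word was found in 1 of the 7 member windows, against 26.5% of all promoter windows of the same length, and GAGGAA in 4 of the 7, against 23.3%. These matches describe letters in the windows, and no binding was measured here.

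Among the integrins that anchor progenitors in the marrow, Itga4 and Itgb1 were both near the top of the arrays' signal, above the array upper quartiles of 7.61 to 7.68. Itga4 measured 11.14, 11.26 and 11.10 in Fog1+/+ and 11.15, 11.11 and 10.95 in Fog1ki/ki. The Fog1ki/ki values reached lower only in replicate 3, and the log2 difference was -0.10 (95% interval -0.32 to 0.12, limma adjusted p = 0.822). Itgb1, the beta chain shared by alpha 2, 4, 5, 6 and V, measured 10.70, 10.89 and 10.79 in Fog1+/+ and 10.89, 10.93 and 10.92 in Fog1ki/ki. The Fog1ki/ki arrays were unusually close together, with an SD of 0.02 against a median SD of 0.14 over all genes in that genotype. All 3 were at or above the highest Fog1+/+ array, and the log2 difference was 0.12 (95% interval -0.09 to 0.33, limma adjusted p = 0.742). Itgb1 lies on the chromosome that carries Zfpm1, with 80 tested genes between them in the RefSeq order, so that DNA linked to the knock-in and the knock-in itself cannot be told apart there.

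The alpha 5, 6 and 2 chains, which give beta 1 its choice of matrix, showed differences no larger than the spread of the arrays. The fibronectin receptor chain Itga5 measured 7.90, 7.76 and 7.65 in Fog1+/+ and 7.91, 7.67 and 7.88 in Fog1ki/ki, which differ by 0.05 in log2 (limma adjusted p = 0.934). The laminin receptor chain Itga6 measured 7.27, 7.33 and 7.23 in Fog1+/+ and 7.59, 7.17 and 6.90 in Fog1ki/ki. The Fog1ki/ki arrays of Itga6 thus lay on both sides of the Fog1+/+ arrays. Their SD of 0.35 was higher than that of 94.7% of genes in this genotype, against 0.05 in Fog1+/+. The log2 difference of Itga6 was -0.06 (95% interval -0.42 to 0.30, limma adjusted p = 0.950), and it became 0.10 without Fog1ki/ki replicate 3 and -0.24 without Fog1ki/ki replicate 1. The collagen receptor chain Itga2 measured 5.65 to 5.87 in Fog1+/+ and 5.72 to 6.03 in Fog1ki/ki (log2 difference 0.10, limma adjusted p = 0.851).

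Itgav had the largest difference of the 10 and did not pass the test. It measured 6.61, 6.47 and 6.79 in Fog1+/+ and 7.21, 6.78 and 7.09 in Fog1ki/ki. Fog1ki/ki replicates 1 and 3 lay above each Fog1+/+ array, and Fog1ki/ki replicate 2 lay level with Fog1+/+ replicate 3. The means were 6.62 ± 0.16 and 7.03 ± 0.22 (SD, n = 3 each), a log2 difference of 0.40, or 1.32-fold (95% interval 1.07-fold to 1.63-fold, limma unadjusted p = 0.0152, adjusted p = 0.338). By unadjusted p, Itgav ranked 883 among the 19661 genes. The difference was above zero in 16 of 16 alternative settings, between 0.31 and 0.53, and the adjusted p stayed between 0.200 and 0.752. The beta chains that alpha V can join besides beta 1 did not pass either: the log2 difference was 0.06 for Itgb3, 0.00 for Itgb5, 0.10 for Itgb6 and 0.19 for Itgb8.

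None of the leukocyte integrins of the beta 2 group passed. Itgb2 measured 6.31, 6.67 and 5.96 in Fog1+/+ and 5.94, 5.99 and 6.10 in Fog1ki/ki. The Fog1+/+ arrays were spread widely, with an SD of 0.36 that was above 97.6% of genes in that genotype, and Fog1+/+ replicate 3 lay among the Fog1ki/ki arrays. The log2 difference was -0.30 (95% interval -0.67 to 0.07, limma adjusted p = 0.624). It was -0.13 without Fog1+/+ replicate 2 and -0.48 without Fog1+/+ replicate 3. The mean over 16 markers of neutrophils and granulocyte-macrophage progenitors was 6.58, 6.73 and 6.42 in Fog1+/+ and 6.39, 6.57 and 6.72 in Fog1ki/ki, which is the order of the Itgb2 values within each genotype. Of the single genes, 3 of the 16 (Ltf, S100a8 and S100a9) kept that order in both genotypes, and the other 13 did not. Ngp, counted among the 13, kept the order in Fog1ki/ki but was tied at 7.66 in Fog1+/+ replicates 1 and 3. The order was not particular to this list. The mean over 11 T and NK lymphoid markers kept it too (5.03, 5.11 and 4.99 in Fog1+/+, 4.96, 5.03 and 5.11 in Fog1ki/ki). So did 1 gene each of the basophil and eosinophil (Prg3), monocyte and macrophage (Lyz2), T and NK lymphoid (Zap70) and B lymphoid (Ms4a1) lists. Between genotypes 0 of the 16 neutrophil and progenitor markers passed, and 1 lay below the lower quartile of the values. Their part in the Itgb2 values was not tested.

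The partners of beta 2 measured below the array medians of 6.02 to 6.15. Itgal, the LFA-1 alpha chain, measured 5.88, 5.59 and 5.88 in Fog1+/+ and 5.44, 5.86 and 5.77 in Fog1ki/ki, which differ by -0.09 in log2 (limma adjusted p = 0.889). Itgam, the Mac-1 alpha chain (CD11b), measured 4.78, 4.86 and 4.69 in Fog1+/+ and 4.77, 4.79 and 4.60 in Fog1ki/ki. In both genotypes its mean (4.78 and 4.72) was under the arrays' lower quartiles (4.81 to 4.92), and its log2 difference was -0.06 (limma adjusted p = 0.909). CD11b is a common target of the antibodies used to remove mature lineages, and the labels do not list those used here. Itgax, the CD11c chain that also joins beta 2, differed by -0.24 in log2 (SE 0.11, limma adjusted p = 0.535), while Itgad, another partner, had one of 0.01.

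Itgb7 showed no detectable difference. It measured 6.07, 6.35 and 6.24 in Fog1+/+ and 6.02, 6.18 and 6.48 in Fog1ki/ki, so that the lowest and the highest array were both Fog1ki/ki. The log2 difference was 0.01 (SE 0.13, 95% interval -0.30 to 0.31, limma adjusted p = 0.993), which bounds a change at 1.24-fold higher. It changed sign with the scaling of the arrays, to -0.05 with arrays centred on their medians and to -0.04 with quantile normalization repeated. In the same arrays 3 of 16 mast cell markers (Ms4a2, Gata2 and Cd63) passed, each higher in Fog1ki/ki, and the mean over that list ran from 5.72 to 5.80 in Fog1+/+ and from 6.16 to 6.53 in Fog1ki/ki. The median log2 difference of the list was 0.12, well under the 3.79 of Ms4a2, the 1.91 of Fcer1a, the 1.40 of Cd63 and the 1.14 of Gata2. Of the 16 genes 8 lay below the lower quartile of the values, and Kit lay in the other direction, at -0.38. Across the Fog1ki/ki arrays Ms4a2 measured 9.15, 8.64 and 7.80, Gata2 8.72, 8.05 and 8.39, and Cd63 11.81, 12.01 and 11.52. These genes thus differed in their order over the arrays. Itgb7 was lowest in replicate 1 and highest in replicate 3. The part of mast cell genes in the Itgb7 values was not tested. Itgae, which joins beta 7 on intraepithelial lymphocytes, differed by -0.22 in log2 (SE 0.17, limma adjusted p = 0.753).

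**Figure D2:**
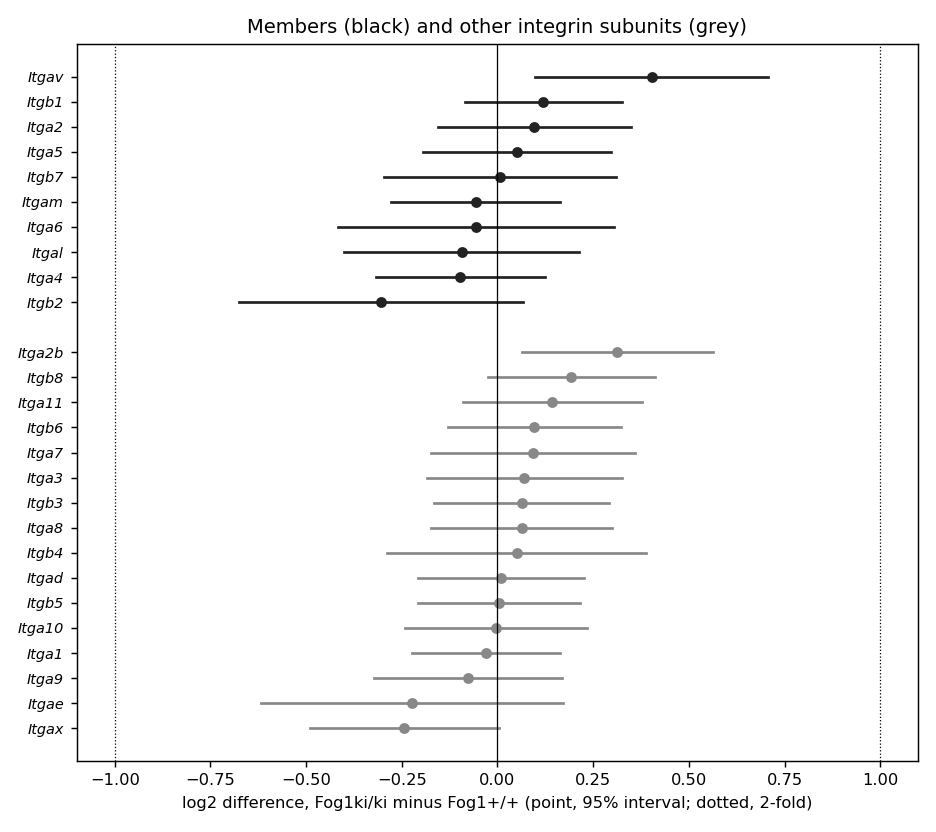
Log2 difference between genotypes (horizontal axis, points) with its 95% interval from limma (lines) for the 10 members in black and 16 other integrin subunits in grey; dotted lines mark a 2-fold change. None of the intervals reaches a 2-fold change, and those of Itgav and Itga2b lie wholly above zero before adjustment over all genes.

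The rest of the integrin family did not pass either. Of 16 other integrin subunits, 0 passed, with a median log2 difference of 0.06 and a range from -0.24 to 0.31. The genotypes did not overlap in 3 of the 16 (Itga2b, Itgax and Itgb8), or 18.8%, against 14.8% of all genes. The platelet subunit Itga2b measured 6.67, 6.32 and 6.50 in Fog1+/+ and 6.73, 6.84 and 6.86 in Fog1ki/ki. The Fog1ki/ki arrays of Itga2b lay above those of Fog1+/+, and the log2 difference of 0.31 did not pass (limma adjusted p = 0.367). Its partner Itgb3 measured 5.38 to 5.48 in Fog1+/+ and 5.39 to 5.66 in Fog1ki/ki (limma adjusted p = 0.900). The mean over 10 megakaryocyte and platelet genes, this pair included, ran from 6.30 to 6.35 in Fog1+/+ and from 6.56 to 6.67 in Fog1ki/ki. Of those 10, 9 had a log2 difference above zero, with Pf4 at 0.97 and Plek at 0.83, 0 passed (limma adjusted p = 0.266 for Pf4 and 0.0911 for Plek) and 1 lay below the lower quartile of the values. Their part in the Itga2b values was not tested.

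The genes that switch integrins on or carry their signals were examined in lists of the pathway. Of 126 measured genes 2 passed, 1 higher and 1 lower, against 0.773% of all genes tested. Of 24 activation and adaptor genes (talins, kindlins, Rap1 and its effectors), 0 passed. The smallest p belonged to Fyb, the adaptor ADAP that links immune receptors to integrin activation, at 9.67, 9.56 and 9.46 in Fog1+/+ and 10.24, 10.39 and 9.91 in Fog1ki/ki. Its genotypes did not overlap, and the log2 difference was 0.62 (SE 0.13, limma adjusted p = 0.102). Fyb passed in 1 of 16 alternative settings, without Fog1ki/ki replicate 3 (limma adjusted p = 0.0367). Skap2, an adaptor that binds ADAP, differed by -0.24 in log2 (SE 0.11, limma adjusted p = 0.520).

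Of 25 measured integrin signalling genes, 0 passed. An unadjusted limma p under 0.05 was reached by 4 that were higher and 1 that was lower, against 9.57% of all genes in either direction. The Src family kinase Fyn measured 7.40, 7.35 and 7.67 in Fog1+/+ and 8.49, 7.65 and 8.21 in Fog1ki/ki (log2 difference 0.64, limma adjusted p = 0.292). Fog1ki/ki replicate 2 of Fyn lay within the Fog1+/+ arrays, as that replicate did for Itgav. Vav1, an exchange factor for Rac, differed by 0.40 in log2 (SE 0.14, limma adjusted p = 0.369).

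Of 33 ligands and counter-receptors, 0 passed. Tgfb1, whose latent form is bound by alpha V integrins, measured 8.03, 8.07 and 8.05 in Fog1+/+ and 7.67, 7.44 and 7.80 in Fog1ki/ki. Each Fog1ki/ki array of Tgfb1 lay below each Fog1+/+ array (log2 difference -0.41, SE 0.11, limma adjusted p = 0.196). Mfge8, a secreted alpha V ligand, differed by 0.15 in log2 (SE 0.09, limma adjusted p = 0.661).

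Both genes that passed were tetraspanins among 14 membrane proteins that associate with integrins. Cd82 fell by 0.61 on the log2 scale, from 8.44, 8.48 and 8.46 in Fog1+/+ to 8.01, 7.72 and 7.81 in Fog1ki/ki (SE 0.10, limma adjusted p = 0.0329). Cd63, which also lines mast cell granules, rose from 10.84, 9.83 and 10.46 to 11.81, 12.01 and 11.52 (log2 difference 1.40, SE 0.23, limma adjusted p = 0.0355). Neither call held in every setting: Cd82 passed in 6 and Cd63 in 8 of 16 alternative settings. With all arrays kept, neither passed in limma with arrays centred on their medians (adjusted p = 0.0560 for Cd82 and 0.0564 for Cd63). The same held with all probe sets tested (limma adjusted p = 0.0525 and 0.0627). Cd82 was not past the threshold in limma when Fog1+/+ replicate 1, 2 or 3 was left out (adjusted p = 0.132, 0.132 and 0.155) or when Fog1ki/ki replicate 2 or 3 was (0.118 and 0.101), nor with the replicate number as a block (0.0709). Cd63 was not past it in limma when Fog1+/+ replicate 3 was left out (adjusted p = 0.135) or when Fog1ki/ki replicate 1, 2 or 3 was (0.0959, 0.151 and 0.0618). The log2 differences stayed between -0.70 and -0.55 for Cd82 and between 1.13 and 1.64 for Cd63 in 16 alternative settings. The tetraspanins Cd9 (-0.18) and Cd53 (0.38) and the beta 3 partner Cd47 (0.04) did not pass.

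Of 14 other homing and adhesion receptors, 0 passed. Their mean ran from 6.38 to 6.42 in Fog1+/+ and from 6.34 to 6.36 in Fog1ki/ki, although 9 of the 14 had a log2 difference above zero. Kit, the stem cell factor receptor used in the sort, measured 10.26, 10.30 and 10.30 in Fog1+/+ and 10.05, 9.72 and 9.96 in Fog1ki/ki (log2 difference -0.38, limma adjusted p = 0.232). Cxcr4, the receptor for the stromal chemokine CXCL12 that draws progenitors to the marrow, measured 9.86, 9.95 and 9.75 in Fog1+/+ and 9.54, 9.60 and 9.28 in Fog1ki/ki (log2 difference -0.38, limma adjusted p = 0.264). For both genes the Fog1ki/ki arrays lay below the Fog1+/+ arrays without overlap.

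**Figure D3:**
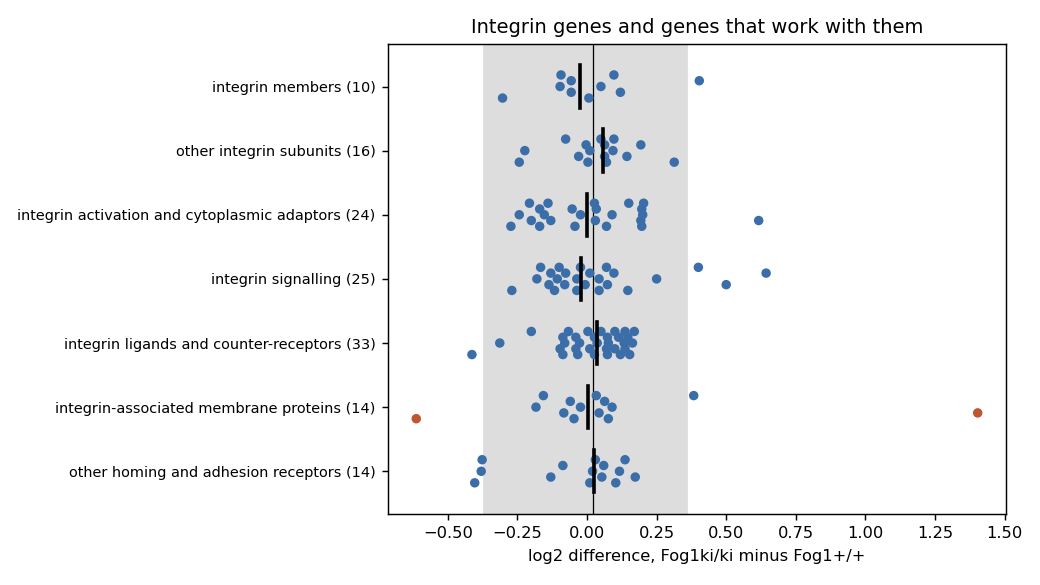
Log2 difference between genotypes (horizontal axis) of each measured gene in the integrin member set and in 6 lists of genes that work with integrins, with the number of genes in brackets; thick bars are list medians, the thin line is the median of all genes and the grey band holds 95% of all genes (-0.37 to 0.36). Orange points are past the limma threshold: Cd82 at -0.61 and Cd63 at 1.40, while the 10 integrin members are all blue.

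Over the whole table, 152 of 19661 genes passed (74 higher, 78 lower), and 43 higher and 73 lower passed with arrays centred on their medians. The count was 60, 83 and 60 without Fog1+/+ replicate 1, 2 and 3 and 82 without Fog1ki/ki replicate 2. The array medians lay between 6.02 and 6.15. The sorted cells carried Kit and the erythroid factors Gata1 (8.54 to 8.57 in Fog1+/+, 8.09 to 8.47 in Fog1ki/ki) and Klf1 (8.23 to 8.37) above the upper quartiles, and Cd34 (4.34 to 4.56) below the lower quartiles. Fcgr2b, which encodes FcγRII of the gate, measured 4.71 to 4.75 in Fog1+/+ and 4.98 to 5.07 in Fog1ki/ki. Gata1 and Fcgr2b did not overlap between genotypes and did not pass (limma adjusted p = 0.435 and 0.248). Fcgr3, which encodes FcγRIII of the same gate, overlapped between genotypes (log2 difference 0.12, limma adjusted p = 0.781). So did Cd34, Klf1 and the erythroid genes Epor and Tfrc, and 14.8% of all genes did not overlap. Zfpm1 measured 7.37 to 7.80 in Fog1+/+ and 7.50 to 7.73 in Fog1ki/ki, and as the change made by the knock-in is not described in the labels, this checks nothing about them. Replicate 3 of each genotype had low values of the Y-linked gene Eif2s3y (3.21 and 3.46, against at least 9.29 elsewhere), and with a term for these arrays 0 of the integrin members passed. Of the other cell types looked for, passing genes came from the B lymphoid list (Blnk, 1 of 9, higher) and the erythroid list (Xk, 1 of 14, lower). In the basophil and eosinophil (13 genes), monocyte and macrophage (10), T and NK lymphoid (11) and megakaryocyte and platelet (10) lists 0 passed. Besides those of mast cell and megakaryocyte genes, means of further cell type lists did not overlap between genotypes. Those of the neutrophil and progenitor, monocyte and macrophage, and T and NK lymphoid lists overlapped. How often means of other gene lists overlap was not measured. For basophil and eosinophil genes the mean was higher in Fog1ki/ki (5.36 to 5.38 against 5.55 to 5.59). So was that of B lymphoid genes (5.41 to 5.55 against 5.70 to 5.76). That of erythroid genes was lower (9.17 to 9.28 against 9.01 to 9.15). The median log2 difference was 0.10 in the basophil and eosinophil list, far below Mcpt8 (1.03) and Prg2 (0.83). It was 0.13 in the B lymphoid list, where Blnk and Vpreb1 (0.49) differed most. In the erythroid list it was -0.08, against -0.60 for Xk and -0.49 for Add2.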

How the data were processed

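RNA from sorted progenitors was amplified, converted to sense-strand cDNA and hybridised to 1-colour arrays, 1 sample per array, per the labels' protocols. The authors deposited values on the log2 scale with 2 decimals. The submitters' processing notes name RMA (background correction, quantile normalization and summary over probes), with no software or settings given in the sources used here; the values themselves show the log2 scale. Of 25668 probe sets, 20777 had 1 gene symbol in the platform annotation, which can be old, 232 had several and 4659 had none. Each of 19661 genes was represented by its probe set with the highest mean. The genotype comparison used limma 3.58.1 under R 4.3.3 (lmFit, eBayes, two-sided, genotype only, no filter) and Benjamini-Hochberg adjustment over all genes. With 3 arrays a side, the smallest p an exact permutation test allows is 0.1. The fit was tested on simulated data. Alternatives covered scaling, filtering, probe set choice, the variance model, a replicate block, low Y-linked arrays and each array left out. The members and lists were chosen with earlier results of these data known. Named genes were the members, Itga2b, Itgb3 and, per pathway list, the genes that passed or otherwise the 2 with the smallest p; other genes were added after their values were seen. The number of arrays limits the precision. Tables and figures used Python 3.11.15, pandas 2.3.3 and matplotlib 3.10.9.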

Additional observations from a re-analysis of the deposited data

How the results depend on the processing

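The count of integrin members past the threshold was 0 in each alternative setting, including an adjusted p under 0.1. Of 159 member values over 16 settings 0 passed, and the lowest adjusted p was 0.200 (Itgav without Fog1ki/ki replicate 2). Itgam was not tested with the dimmest 20% of genes left out, since it was among them. The number of genes past the threshold was 24 with both replicates 3 left out, which leaves 2 arrays per genotype, and ran from 60 to 134 with each array left out in turn. The count over the pathway lists, 2 in all, was 0 with arrays centred on their medians, with all probe sets tested, with the term for low Y-linked arrays and with both replicates 3 left out, and ran from 0 to 1 with each array left out in turn; the cause was not tested. With the replicate number as a block, 133 genes, 0 integrin members and 1 list gene (Cd63) passed. The labels do not say that the numbers pair arrays, so the block was not used otherwise. Deviations of same-numbered arrays correlated at 0.07, -0.01 and 0.13 across genes for replicates 1, 2 and 3. Those of differently numbered arrays correlated at -0.13 to 0.06. The 0.13 belonged to the replicates 3, which both had low Y-linked values. RMA compresses differences of dim probe sets such as that of Itgam.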

Other observations

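Fog1ki/ki replicate 2 combined a high value of the X-inactivation transcript Xist (9.13) with high values of the Y-linked gene Eif2s3y (9.44). Xist measured 5.18 to 5.90 in the other arrays with high Y-linked values and 11.02 and 11.03 in the replicates 3. The same array held the lowest Fog1ki/ki values of Itgav (6.78), Itga2 (5.72) and Itga5 (7.67) and the highest of Itgal (5.86), Itgam (4.79) and Itgb1 (10.93). For Itga4, Itga6, Itgb2 and Itgb7 it lay between the other Fog1ki/ki arrays. This does not set the array apart, since Fog1ki/ki replicate 1 was the lowest or highest of its genotype for every member but Itgam. Without Fog1ki/ki replicate 2 the log2 difference of Itgav was 0.53 (limma adjusted p = 0.200), against 0.40 with all arrays.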
